A study of Homo sapiens with 4 samples.

Results

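The transcripts described here are the 10 genes at the core of the integrated stress response in the count table of THUMPD1 knockout (KO) and wild type (WT) HEK-293T cells. They are the 4 kinases that phosphorylate eIF2α (EIF2AK1, EIF2AK2, EIF2AK3 and EIF2AK4), the GCN2 regulators GCN1L1 and IMPACT, the substrate EIF2S1, the phosphatase adapters PPP1R15A and PPP1R15B, and the transcription factor ATF4. Members were chosen by gene symbol, and all 10 were found among the 18917 genes of the table. All 10 passed the filter on low counts, as did 13128 genes in all. HEK-293T is an immortalized human embryonic kidney line, which the sample labels call HEK293. THUMPD1 is the adapter protein with which NAT10 acetylates cytidine in tRNA. The WT group was the unedited line and the KO group carried a CRISPR-Cas9 disruption of THUMPD1. Both were grown in medium with 10% serum and 2 mM glutamine, with no stress agent named. KO lines were made by sorting single cells, so that genotype and clone cannot be told apart. Each genotype had 2 libraries, made from total RNA with a ribosomal RNA depletion kit. Nothing in the labels says that the libraries came from separate cultures, so the p-values measure the spread between libraries, which may be technical.

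The 4 kinases each sense a different stress and phosphorylate the α subunit of the initiation factor eIF2, which turns eIF2 into an inhibitor of its own exchange factor eIF2B and lowers general translation. A few transcripts with short open reading frames in their leaders, ATF4 above all, are then translated better, and ATF4 protein activates genes of amino acid supply and stress adaptation. The pathway is run largely by phosphorylation and translation, and the counts measured RNA alone. The question put to these data was whether loss of THUMPD1 went with a change in the RNA of the sensors, of the substrate, of the enzymes that reverse the phosphorylation or of the effector.

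Library totals ran from 7875722 to 11362363 counts. Levels are given in CPM, the usual depth-scaled unit, on library sizes corrected by TMM. On those sizes a floor of 3 counts equalled 0.391 and 0.273 CPM in the WT libraries and 0.259 and 0.282 CPM in the KO libraries. The THUMPD1 transcript fell from 44.5 ± 2.72 CPM in WT (SD, n = 2) to 5.79 ± 0.486 CPM in KO, a log2 fold change of -2.93 (SE 0.17), in accord with the genotype labels. Of 9 transcripts that mark the HEK line, 8 were at or above 1 CPM in every library, and their sum was 764 to 792.3 CPM in WT and 645.1 to 687 CPM in KO. Of these, the neurofilament NEFM was at 184.7 and 176.9 CPM in WT and 26.35 and 23.01 CPM in KO, and its part in the results was not tested. Without it the other 8 summed to 607.6 and 587.1 CPM in WT and 618.8 and 664 CPM in KO, higher in KO. LHX1, the one under 1 CPM in some libraries, was at 0.783 and 0.546 CPM in WT and 3.2 and 2.54 CPM in KO. Of the markers of other cells, the hepatocyte, endothelial and skeletal muscle pairs were low and reached at most 2.09 CPM. The fibroblast pair lay between 18.6 and 25.7 CPM, and its 2 genes differed. COL1A1 was at 25.3 and 20.75 CPM in WT and 21.25 and 18.5 CPM in KO, and DCN reached at most 0.518 CPM. COL1A1 was above the HEK line markers PAX2 (at most 7.95 CPM) and KRT8 (at most 10.46 CPM) in every library. Fewer cells of a kind and less RNA per cell cannot be told apart in bulk RNA.

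RNA of the core pathway moved little. A gene was called where the adjusted p of the quasi-likelihood test in edgeR, by the Benjamini-Hochberg method over all 13128 genes, was under 0.05. Of the 10 members, 3 were called higher in KO, EIF2AK4 (GCN2), EIF2AK2 (PKR) and ATF4, and none was called lower. Among all tested genes 20.9% were called, 8.79% higher and 12.1% lower, or 1154 and 1594 genes. With library size alone as the scale the split was 2081 higher and 1158 lower over all genes, and 4 and 0 over the members. Fold changes of the members ran from -0.25 to 0.33 on the log2 scale, with a median of 0.01, beside a median of 0.01 over all tested genes. Both KO libraries lay above both WT libraries for 5 members and below them for 2, where 30.4% and 30% of all tested genes did so, 60.4% in either direction. None of the 3 was called without WT replicate 2 or without KO replicate 1, and DESeq2 called only ATF4.

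**Figure D1:**
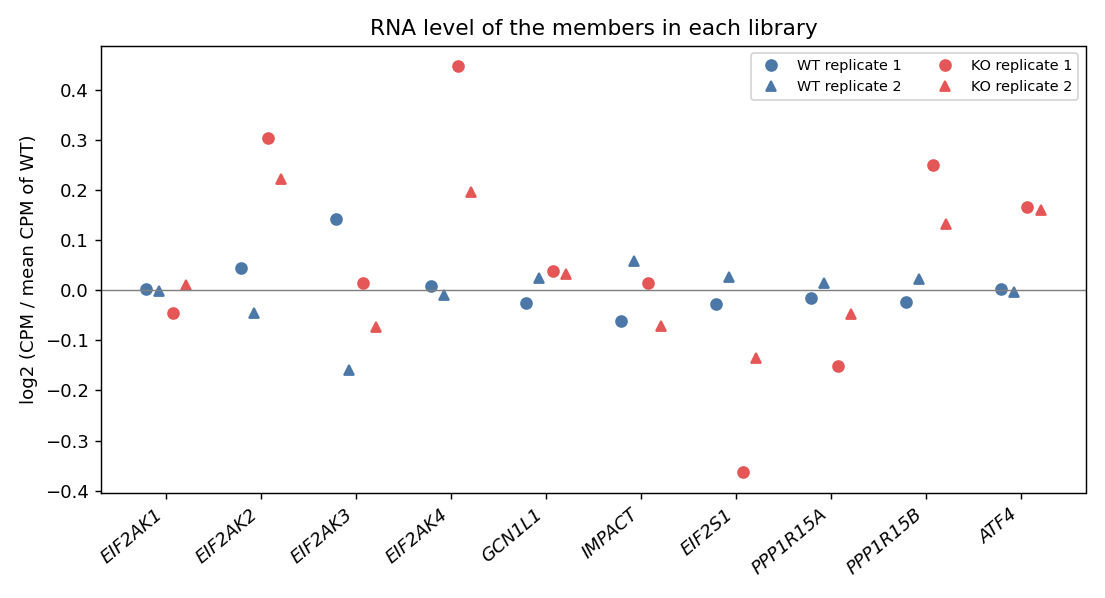
CPM of each of the 10 members, one point per library, as log2 of its ratio to the WT mean, with WT in blue, KO in red and the replicate number given by the shape. The libraries of the groups do not overlap for 7 members, as for 60.4% of all tested genes. They overlap for EIF2AK1, EIF2AK3 and IMPACT. For GCN1L1 the gap between the groups is smaller than the spread of the WT libraries.

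The transcript of ATF4 is the textbook case of control by upstream frames, and its start codons are printed here because they set what an RNA count can and cannot show. In the canonical transcript of GENCODE 44 the leader is 282 bases long and holds 3 upstream ATG codons. The first opens a frame of 1 codon, the second a frame of 3 codons, and the third a frame of 59 codons that starts 97 bases before the main start and runs on into the coding sequence. The start codon is in capitals, and all are on the + strand of chromosome 22 (GRCh38).
ATF4 upstream frame 1, chr22:39520577-39520597: cgcccacagATGtagttttct
ATF4 upstream frame 2, chr22:39520639-39520659: acggccaccATGgcgtattag
ATF4 upstream frame 3, across a splice junction: gcttaagccATGgcgcttctc
ATF4 main start, chr22:39521437-39521457: caccgcaacATGaccgaaatg
The first frame is a start codon followed at once by a stop codon. Upstream frames were found in 6 of the 10 members, against 42% of 19580 canonical transcripts, and a frame that overlaps the coding sequence in 2, ATF4 and EIF2AK3, against 13.3%. PPP1R15A and PPP1R15B each had 2 frames inside the leader, of 22 and 26 codons and of 8 and 51 codons. EIF2AK2 and EIF2S1 had 1 each, and that of EIF2S1 starts at base 1 of the annotated transcript, so its count depends on where the annotation begins. EIF2AK1, EIF2AK4, GCN1L1 and IMPACT had none. The counts say nothing of how often any of these frames is translated.

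EIF2AK1 encodes HRI, the kinase activated by heme shortage and by mitochondrial stress (chr7:6022247-6059175, minus strand). Its level was 225.2 and 224.7 CPM in WT and 217.8 and 226.5 CPM in KO. The groups overlapped. The fold of KO over WT was 0.988 with a 95% interval of 0.902 to 1.08.

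EIF2AK2 encodes PKR, the kinase that binds double-stranded RNA (chr2:37099210-37157522, minus strand). It was measured at 73.42 and 68.97 CPM in WT and at 87.85 and 83.1 CPM in KO. Both KO libraries were higher than both WT libraries. EIF2AK2 rose 1.20-fold (95% interval 1.06 to 1.36), a log2 fold change of 0.27 (SE 0.09), with an adjusted p of 0.0295 by edgeR with Benjamini-Hochberg adjustment. The call was lost without WT replicate 2 (log2 fold change 0.22) and without KO replicate 1 (0.23), and DESeq2 gave 0.26 with an adjusted p of 0.11.

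EIF2AK3 encodes PERK, the kinase of the endoplasmic reticulum membrane that answers unfolded protein (chr2:88556741-88691518, minus strand). Its lowest count was 179, in WT replicate 1, where counting error alone is 7.47%. The libraries stood at 23.34 and 18.93 CPM in WT and at 21.34 and 20.09 CPM in KO, with both KO values between the WT values. The fold was 0.988 with an interval of 0.787 to 1.24, wide enough to hold changes as large as those called for EIF2AK2.

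EIF2AK4 encodes GCN2, the kinase activated by uncharged tRNA and by stalled or collided ribosomes (chr15:39934115-40035591, plus strand). It stood at 59.6 and 58.87 CPM in WT and at 80.76 and 67.89 CPM in KO. The WT libraries were nearly equal and both KO libraries were higher, though they differed from each other by 0.25 on the log2 scale. EIF2AK4 had the highest fold change of the 10 members, 1.26-fold (95% interval 1.09 to 1.45), or 0.33 on the log2 scale (SE 0.10), with an adjusted p of 0.0174 by edgeR with Benjamini-Hochberg adjustment. Without KO replicate 1, the higher of the KO libraries, the log2 fold change was 0.20 and the call was lost, as it was without WT replicate 2 (0.32) and with DESeq2 (0.33).

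To put the members in order of level, CPM were divided by the length of each gene's longest transcript in GENCODE 44. In WT the order ran from ATF4 at 415 ± 1.32 CPM per kilobase through EIF2AK1 (51 ± 0.0906), GCN1L1 (40.7 ± 1), EIF2S1, IMPACT, PPP1R15A, EIF2AK4, PPP1R15B and EIF2AK2 to EIF2AK3 (4.47 ± 0.661). The libraries of PPP1R15A and EIF2AK4 overlapped in WT, and those of IMPACT and EIF2S1 overlapped in KO. The order of the 10 was worked out for the longest transcript alone. Without division by length GCN1L1 (353.5 CPM in WT) lay above EIF2AK1 (224.9 CPM), with ATF4 at 837.2 CPM. Median transcripts are 543 bases for GCN1L1 and 1275 for ATF4, against longest ones of 8681 and 2019. The gap between these genes therefore depends on the length used. EIF2AK1 gave most of the kinase RNA, 69.7% ± 0.976 of the sum of the 4 kinases in WT (SD, n = 2) and 65.7% ± 2.47 in KO. EIF2AK4 held 14.6% ± 0.104 in WT and 17.5% ± 1.97 in KO, and EIF2AK2 held 9.62% ± 0.274 and 11% ± 0.322. The share of EIF2AK3 was 6.1% ± 0.807 in WT and 5.72% ± 0.184 in KO. The shares are a description, and no test was run on them. Of the 4 kinases EIF2AK1 was first under every length used, but the order of EIF2AK4 and EIF2AK2 turned with the length. With the coding length, chosen after the data were seen, EIF2AK2 held 23.9% and EIF2AK4 6.64% in WT.

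**Figure D2:**
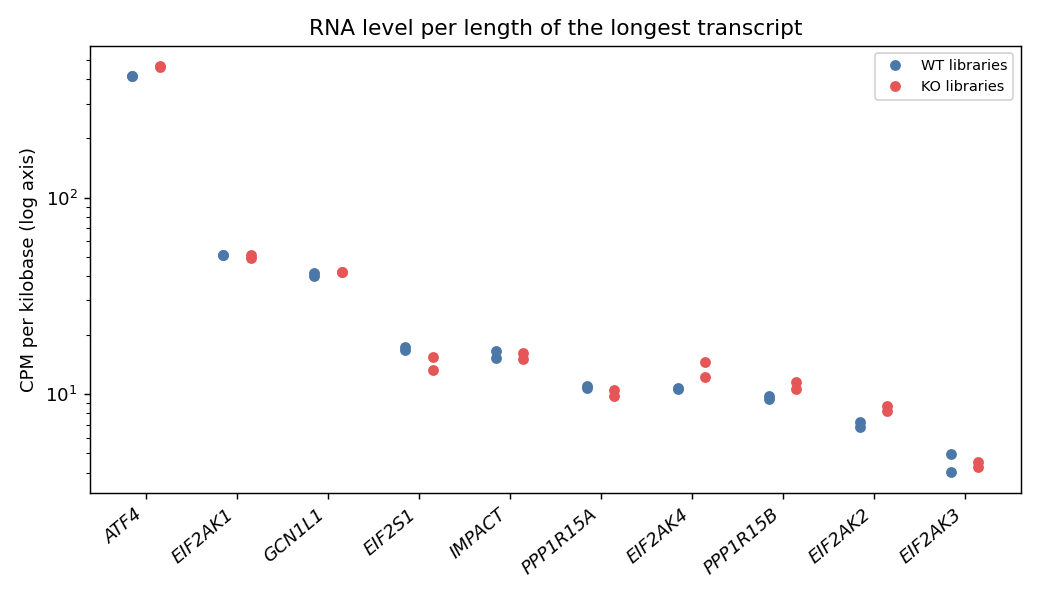
Level of each member in CPM per kilobase of its longest transcript, on a log axis, one point per library, WT in blue and KO in red. On this length ATF4 stands far above the other 9 members, EIF2AK1 and GCN1L1 follow, and EIF2AK3 is lowest. The order depends on the length used.

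GCN1L1 encodes GCN1, the ribosome-bound protein that GCN2 needs for its activation (chr12:120127202-120194715, minus strand). Its level was 347.3 and 359.6 CPM in WT and 363.1 and 361.6 CPM in KO. The KO libraries lay above the WT libraries by less than the WT libraries lay apart. The fold was 1.03 (interval 0.941 to 1.12) and the adjusted p of edgeR with Benjamini-Hochberg adjustment was 0.725. IMPACT competes with GCN2 for GCN1 and so restrains the kinase (chr18:24426634-24453531, plus strand). It read 57.12 and 62.06 CPM in WT and 60.21 and 56.71 CPM in KO. The groups overlapped, with a fold of 0.979 and an interval of 0.851 to 1.13. Of the kinase GCN2 and these 2 regulators, then, only the kinase transcript passed the test, and whether the 3 differ from one another in their response was not tested.

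EIF2S1 encodes eIF2α, the protein that the 4 kinases phosphorylate (chr14:67360328-67386516, plus strand). It was at 69.38 and 71.98 CPM in WT and at 54.94 and 64.32 CPM in KO. Both KO libraries were lower than both WT libraries, and they were spread more widely. The fold was 0.842 (interval 0.732 to 0.968), a log2 value of -0.25 (SE 0.10), and the adjusted p of 0.0728 by edgeR with Benjamini-Hochberg adjustment missed the threshold. The value hung on the KO libraries. Without KO replicate 2 it passed the threshold (log2 fold change -0.37, adjusted p 0.0236 by edgeR with Benjamini-Hochberg adjustment), and without KO replicate 1 it was -0.14 (adjusted p 0.538 by the same test). Per kilobase EIF2S1 stood at 17 ± 0.442 CPM in WT and 14.4 ± 1.6 CPM in KO, close to IMPACT at 16 ± 0.935 and 15.7 ± 0.661 CPM.

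PPP1R15A encodes GADD34, the stress-induced adapter that brings protein phosphatase 1 to eIF2α and is itself a target of ATF4 (chr19:48872212-48876059, plus strand). Its libraries read 34.95 and 35.67 CPM in WT and 31.79 and 34.18 CPM in KO. The KO libraries were slightly lower. The fold was 0.933 with an interval of 0.782 to 1.11, and edgeR's adjusted p, with Benjamini-Hochberg adjustment, was 0.614. PPP1R15B encodes CReP, the adapter that serves unstressed cells (chr1:204396492-204411887, minus strand). It read 49.95 and 51.59 CPM in WT and 60.38 and 55.68 CPM in KO. Both KO libraries were higher, with a fold of 1.14 (interval 0.989 to 1.32), and the adjusted p of edgeR with Benjamini-Hochberg adjustment was 0.188, past the threshold only with library size alone as the scale (log2 fold change 0.28).

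Promoters were searched on both strands for the C/EBP-ATF element, TGATGNAAN, through which ATF4 acts with C/EBP partners, and for the ER stress element. The RefSeq table for GRCh38.p14, which runs from 250 bases before to 50 after each gene's start, held 9 of the 10 members. EIF2AK1 was missing from it and was not searched. The first motif was present in 3.61% of 35116 promoters and in 1 of the members, PPP1R15B, on the strand of the gene and 227 bases before the start. It is printed with its flanks, the motif in capitals.
PPP1R15B, chr1:204412026-204412054, minus strand: ccgccccggcTGATGCAACctcacgctgc
The second was present in 0.0769% of promoters and in none of the 9 members searched. A match in letters is a description, and binding was not measured.

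ATF4, the transcription factor at the end of the pathway (chr22:39519695-39522683, plus strand), was among the most abundant transcripts of the cell, at the 99.4th percentile of tested genes per kilobase. It was measured at 839.1 and 835.3 CPM in WT and at 939.4 and 935.3 CPM in KO. Within each genotype the libraries were nearly equal, and both KO libraries were higher. ATF4 rose 1.12-fold (95% interval 1.03 to 1.21), a log2 fold change of 0.16 (SE 0.06), with an adjusted p of 0.0416 by edgeR with Benjamini-Hochberg adjustment. The log2 fold change stayed between 0.16 and 0.17 when each library was left out in turn. None of those 4 fits called it, with adjusted p between 0.0948 and 0.135 by edgeR with Benjamini-Hochberg adjustment. Scaling by genes outside chromosomes 16 and 22 gave 0.14 and an adjusted p of 0.0754 by edgeR with Benjamini-Hochberg adjustment. GENCODE lists 4 pseudogenes of ATF4 and 1 of EIF2AK1. None of the 5 has a row of its own in the table, so how reads shared with them were counted is uncertain.

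**Figure D3:**
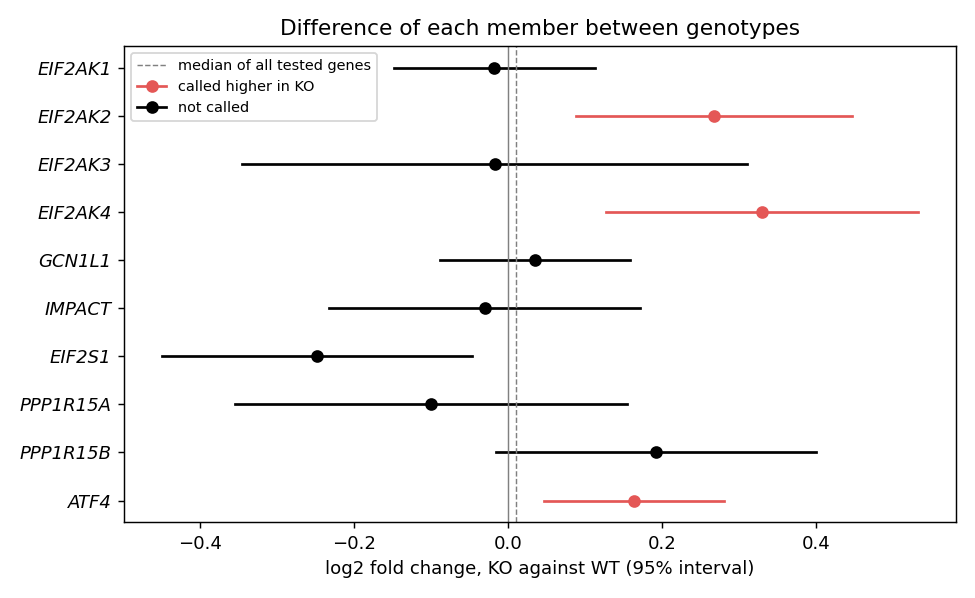
Log2 fold change of KO over WT for each member with its 95% interval from edgeR, red where the gene was called and black where it was not, with the median of all tested genes as a dashed line. The intervals of EIF2AK2, EIF2AK4 and ATF4 lie above 0, that of EIF2S1 lies below 0 without a call, and the other 6 hold 0.

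ATF4 lay above most of its chromosome. Chromosome 22 was lower in KO as a whole, with a median log2 fold change of -0.42 over 311 tested genes, 187 of them called lower and 2 called higher. The 2 were ATF4 and HMOX1, the heme oxygenase, at 0.59. Of the 311 genes 31 were not below 0 and 14 were above ATF4. ATF4 itself was no longer called when chromosomes 16 and 22 were left out of the scaling (0.14). Of the 23 other tested genes within 1000 kb of ATF4, 21 were below 0, 11 were called lower and none was called higher, with a median of -0.32 and a range of -1.26 to 0.16. The top of that range was RPL3, a ribosomal protein, close to ATF4 in its value and not called. HMOX1 and RPL3 were named after their values were seen. The nearest tested genes on the left were MGAT3, a glycosyltransferase, at -0.82, and SMCR7L, a mitochondrial fission factor, at -0.48. On the right were RPS19BP1 at -0.17, which was not called, and TNRC6B, a protein of microRNA silencing, at -0.24. Without KO replicate 1, MGAT3 (-0.56) and TNRC6B (-0.23) were not called. The medians of the chromosomes that carry the other 9 members lay between -0.05 and 0.08. Why chromosome 22 was low was not tested.

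**Figure D4:**
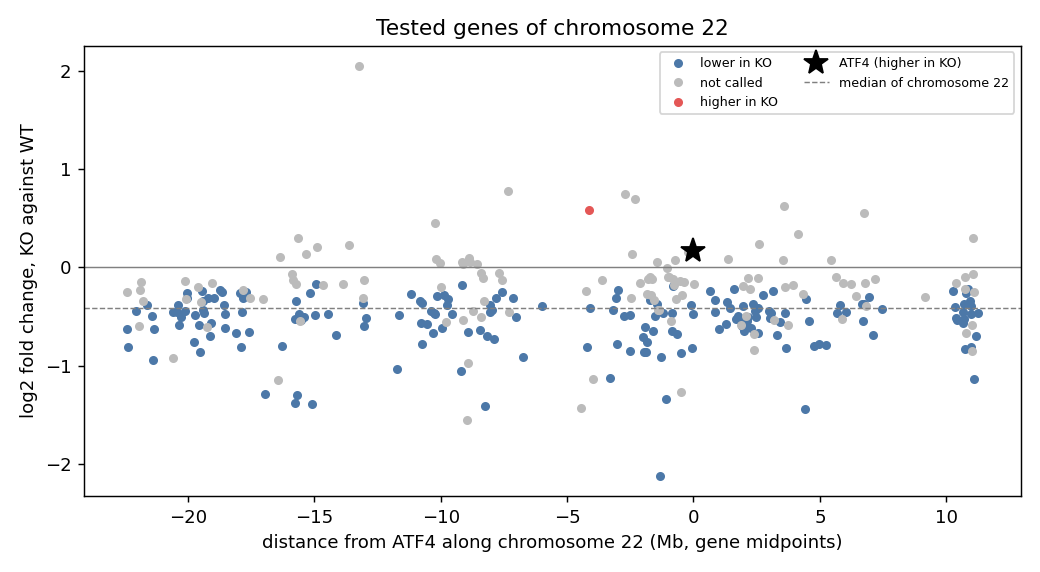
Log2 fold change of KO over WT for the tested genes of chromosome 22 against their distance from ATF4 along the chromosome, in Mb. Blue genes were called lower, the red gene higher and grey genes were not called, the dashed line is the chromosome median, and ATF4, a black star, lies at 0.16, above the median of -0.42.

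The profiles nearest to that of ATF4 over the 4 libraries, among 205 genes whose mean level was within 2-fold of it, included those of RPLP2 and RPS7, both proteins of the ribosome. Their log2 fold changes were 0.17 and 0.14, and RPS7 was not called. The measure was the distance between log2 CPM centred on each gene's mean, 0.0115 and 0.0274.

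Around the core, 65 genes of 6 lists were tested. Of these 8 were called higher in KO, 9 lower and 48 neither, with a median log2 fold change of 0.01, where 8.79% of all tested genes were called higher and 12.1% lower. With library size alone as the scale 15 were higher and 5 lower. The 17 calls fell to 7 without KO replicate 1, to 12 without WT replicate 1 or without KO replicate 2, and to 15 without WT replicate 2. All 17 are named, with SE of 0.06 to 0.14 on the log2 scale and adjusted p of 0.0347 or less by edgeR with Benjamini-Hochberg adjustment. Of these EIF2S3, ABCF1, ATF3 and CREB3L2 were called under all 8 alternative settings and without each library in turn, and each of the others lost its call at least once. Library size alone as the scale lost the calls of EIF5 (-0.16), DENR (-0.11), HSPA5 (-0.15) and EP300 (-0.14). DESeq2 lost those of EIF5, PRKRA, PPP1CA, CEBPG, FBXW11 and ATF5, limma-voom those of EIF5, DENR and EP300, upper-quartile factors that of DENR, and TMM without chromosomes 16 and 22 that of RPLP2.

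Of 13 genes for eIF2 subunits, assembly and nucleotide exchange, 1 rose and 3 fell, with a median of -0.06. EIF2S3, the γ subunit of eIF2 that binds GTP and initiator tRNA, rose from 515.8 ± 31.5 CPM to 721.8 ± 42.6 CPM, 1.40-fold (log2 fold change 0.48, SE 0.06). EIF2S2, the β subunit, was at 165 and 182.9 CPM in WT and 163.8 and 160.5 CPM in KO, with a log2 value of -0.10 that was not called. EIF2B3, a subunit of the exchange factor that phosphorylated eIF2 inhibits, fell from 48.4 ± 2.56 to 36.3 ± 3.03 CPM (log2 fold change -0.41). EIF5, the GTPase activator of eIF2, fell by 0.24 and DENR, a factor of reinitiation after short frames, fell by 0.19 on the log2 scale. EIF2B3, EIF5 and DENR were not called without KO replicate 1 (-0.33, -0.17 and -0.20) or without WT replicate 1 (-0.36, -0.18 and -0.13), nor was DENR without KO replicate 2 (-0.18).

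Regulators of the kinases moved both ways, 3 of 18 higher and 3 lower, with a median of 0.04. ABCF1 and ABCF2, ATPases related to the yeast partner of GCN1, fell by 0.47 and 0.32 on the log2 scale, and the third of the family, ABCF3, was at -0.21 and was not called. RPLP0 and RPLP2, proteins of the ribosomal P-stalk that activates GCN2, rose by 0.22 and 0.17, while RPLP1, the third stalk protein, was at 0.07 and was not called. Reads of ribosomal protein genes can be shared with processed pseudogenes, so these counts are uncertain. HSPA5, the chaperone BiP that holds PERK inactive, fell from 338.6 ± 5.89 to 286.9 ± 2.73 CPM (log2 fold change -0.24, or -0.15 and not called with library size alone). PRKRA, the activator of PKR also called PACT, rose from 59.7 ± 3.09 to 73.1 ± 0.0779 CPM (0.29). Without KO replicate 1, ABCF2 (-0.23), RPLP0 (0.19), RPLP2 (0.17) and PRKRA (0.29) were not called. RPLP2 lost its call whichever of the 4 libraries was left out, at 0.17 each time. RPLP0 also lost its call without WT replicate 2 (0.17), and PRKRA without WT replicate 1 (0.24) or KO replicate 2 (0.29).

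Of 6 protein phosphatase 1 genes, 1 passed the test, the catalytic subunit PPP1CA, which rose from 241.1 ± 14.6 to 279.1 ± 15.8 CPM (log2 fold change 0.21). It was not called without WT replicate 1 or without KO replicate 2, at 0.15 both times. Among 10 partners and regulators of ATF4 protein, 2 rose and 1 fell. CEBPG, a dimer partner of ATF4, rose by 0.33 on the log2 scale and FBXW11, an F-box protein that marks ATF4 for degradation, by 0.25. EP300, an acetyltransferase that stabilizes ATF4 and whose gene also lies on chromosome 22, fell by 0.22. CEBPG lost its call without WT replicate 2 (0.26) or KO replicate 1 (0.29), and FBXW11 without WT replicate 1 (0.18), KO replicate 1 (0.23) or KO replicate 2 (0.27). EP300 lost its call without WT replicate 1 (-0.15) or KO replicate 2 (-0.17). DDIT3, the pro-apoptotic factor CHOP induced in the stress response, was low and variable, at 6.39 and 2.64 CPM in WT and 3.02 and 4.70 CPM in KO. TRIB3, an inhibitor of ATF4 that it induces itself, was at a log2 value of 0.12. Neither of the last pair was called.

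Of 14 genes of the CREB and ATF family, 1 rose and 2 fell. ATF3, a stress-induced factor downstream of ATF4, had the highest fold change of the 65 genes. It was at 22.69 and 24.11 CPM in WT and at 37.4 and 35.87 CPM in KO. The groups were well apart, and ATF3 rose 1.56-fold (95% interval 1.30 to 1.88), with an adjusted p of 0.000875 by edgeR with Benjamini-Hochberg adjustment. ATF5, which like ATF4 is controlled by upstream frames, had the lowest, at 30.13 and 31.67 CPM in WT and 20.73 and 23.85 CPM in KO. Its fold was 0.720 (interval 0.589 to 0.880), with an adjusted p of 0.0166 by edgeR with Benjamini-Hochberg adjustment. ATF5 was not called without WT replicate 2 (-0.44) or KO replicate 1 (-0.37). CREB3L2, a factor of the endoplasmic reticulum membrane, fell by 0.27 on the log2 scale. ATF5 was also the 1 gene that fell among 6 other transcripts with inhibitory upstream frames, of which none rose.

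**Figure D5:**
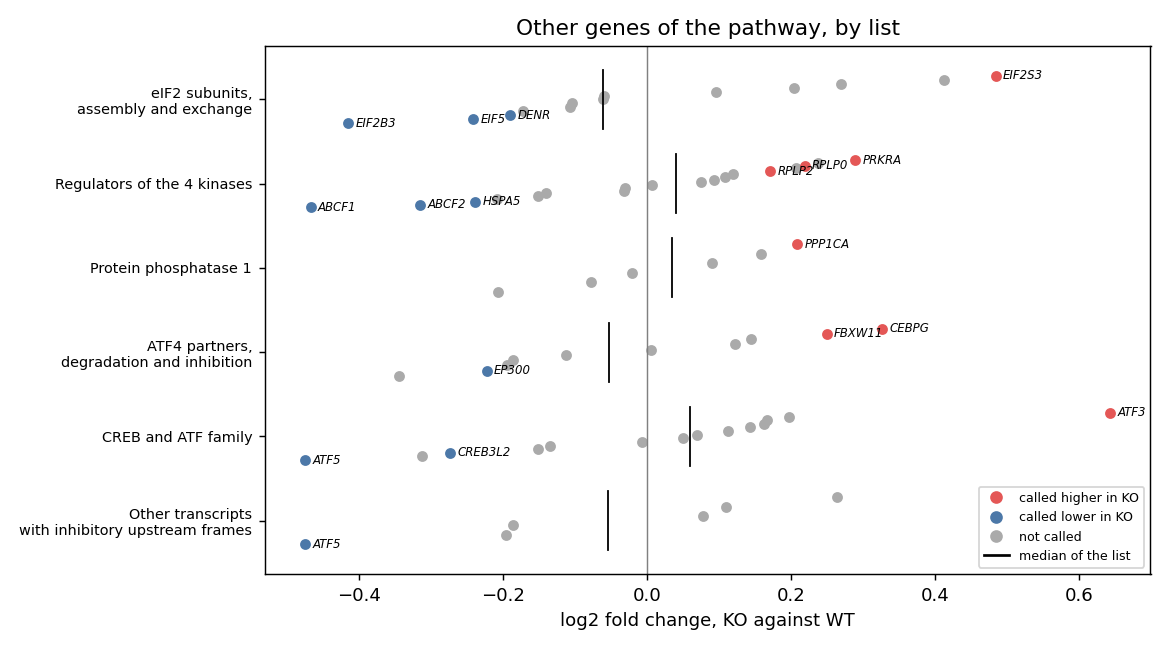
Log2 fold change of KO over WT for each tested gene of the 6 lists, one row per list, red where called higher, blue where called lower and grey where not called, with a bar at the median of each list. List medians lie between -0.06 and 0.06, and the most extreme genes are ATF3 at 0.64 and ATF5 at -0.47.

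Genes on the opposite strand overlap 5 members in GENCODE, EIF2AK1, EIF2AK2, EIF2AK3, EIF2AK4 and PPP1R15B. For EIF2AK3 (18870 and 4283 bases), EIF2AK4 (334 bases) and PPP1R15B (15396 and 523 bases) they are non-coding genes or a pseudogene without a row of their own in the table. EIF2AK2 shares 775 bases with the pseudogene ARL14EPP1, and EIF2AK1 shares 105 bases with a small nuclear RNA gene, both also without a row. Of the coding ones, ANKRD61, inside EIF2AK1, had no count in any library. AIMP2, which shares 1588 bases with EIF2AK1, was at a log2 value of -0.18 and GPATCH11, which shares 35 bases with EIF2AK2, at 0.28, and neither was called. Whether counting used strand is not given in the sources used here, so shared reads leave the values of these 5 members uncertain. Non-coding genes on the same strand overlap IMPACT (105 and 4275 bases), GCN1L1 (66 bases) and EIF2AK1 (303 bases). How reads shared with them were counted is uncertain too.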

How the data were processed

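RNA-seq of 2 WT and 2 THUMPD1 KO libraries was analysed. Per gene symbol and library, the authors deposited read counts as whole numbers, without normalization. The labels' processing notes name hg19 and the study's methods name GRCh38, and the pipeline behind the table is not given in the sources used here. The methods give more samples per genotype than the 2 labelled, and only the labelled ones were analysed here. The labels also name another library kit than the methods do. How these libraries relate to those of the methods is not given in the sources used here. A deposited table of the authors' own comparison was not used. Genotypes came from the sample labels.

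Genotypes were compared by edgeR 4.0.16 in R 4.3.3 (TMM, glmQLFit, glmQLFTest). A gene entered where 2 or more libraries reached 1 CPM, which 13128 did, and p-values were adjusted over these by Benjamini-Hochberg, called under 0.05. SE and 95% intervals came from the same fit. Library totals ran from 7875722 to 11362363, and counting error covers reads only, which carry no molecular identifiers. Chi-square per degree of freedom between replicates was 4.08 in WT and 6.9 in KO, more than sampling noise, so each library was kept as its own. Genes were placed on GRCh38 with GENCODE 44, 17318 by symbol and 1200 by synonym of 18917. Promoters were those of RefSeq. The test was checked on simulated counts, in which the planted changes were larger than those of the members.

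Members and lists were chosen with earlier results of these data known. Named are THUMPD1, the members, every called gene of the lists with uncalled genes where needed, overlapping genes, the 2 nearest tested genes on each side of ATF4 and genes among the 3 profiles nearest to it. Some genes and a marker list under these rules are not reported here. The uncalled EIF2S2, ABCF3, RPLP1, DDIT3 and TRIB3 were named after their values were seen. Alternatives were library size alone, upper-quartile factors, DESeq2 1.42.0, limma-voom 3.58.1 with quantile normalization, TMM without chromosomes 16 and 22, other filters, the replicate number as a block, other gene lengths, and leaving out each library, where the lone library is taken to vary like the others. Python 3.11.15, pandas 2.3.3 and matplotlib 3.10.9 served for tables and figures.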

Additional observations from a re-analysis of the deposited data

How the results depend on the processing

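With 2 libraries per genotype, the SE of a member's log2 fold change ran from 0.06 (ATF4) to 0.16 (EIF2AK3). Among the members, EIF2AK2, EIF2AK4, GCN1L1, EIF2S1, PPP1R15A, PPP1R15B and ATF4 kept their direction under the 8 alternative settings and without each library. EIF2AK1, EIF2AK3 and IMPACT, whose log2 fold changes lay near 0, did not. Library size alone gave 0.07 for EIF2AK1, 0.07 for EIF2AK3 and 0.05 for IMPACT, upper-quartile factors gave 0.01 and limma-voom 0.02 for both EIF2AK1 and EIF2AK3. Without 1 library, EIF2AK1 ran from -0.05 to 0.01, EIF2AK3 from -0.17 to 0.13, IMPACT from -0.09 to 0.03 and DDIT3 from -0.73 to 0.54, where it was 0.54 without WT replicate 1 and 0.10 without KO replicate 1.

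DESeq2 did not call EIF2AK2 (0.26) or EIF2AK4 (0.33), TMM without chromosomes 16 and 22 did not call ATF4 (0.14) and did call EIF2S1 (-0.27), and library size alone called PPP1R15B (0.28). Without 1 library, log2 fold changes ran from 0.22 to 0.31 for EIF2AK2, from 0.20 to 0.45 for EIF2AK4, from -0.37 to -0.14 for EIF2S1 and from 0.16 to 0.17 for ATF4. The number of members called was 1 with DESeq2, that 1 being higher, and ran from 0 to 3 without 1 library, of which 0 to 2 were higher and 0 to 1 lower. TMM without chromosomes 16 and 22 called 1 member lower. DESeq2 called 11 genes of the lists and 1764 of all genes, against 17 and 2748, and leaving out 1 library gave 7 to 15 and 1620 to 2591. Library size alone moved the median of all genes from 0.01 to 0.09 and the calls to 2081 higher and 1158 lower, against 1154 and 1594, limma-voom gave 1279 and 1349, and upper-quartile factors 1392 and 1438. The cause of these differences was not tested.

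The labels number replicates 1 and 2 in both genotypes, and nothing says that a number marks a shared batch. Deviations of same-numbered libraries correlated at 0.0596 over 11113 genes. With the replicate number as a block, 3222 genes were called, and EIF2S1 was called lower (-0.25), the 1 member so called.

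Kinase shares depended on length. With the median transcript length they were 84.5% for EIF2AK1, 1.93% for EIF2AK2, 1.59% for EIF2AK3 and 12% for EIF2AK4 in WT, and 81.5%, 2.26%, 1.53% and 14.7% in KO. With no division by length they were 59.8% for EIF2AK1, 18.9% for EIF2AK2, 5.61% for EIF2AK3 and 15.7% for EIF2AK4 in WT, and 55.2%, 21.2%, 5.14% and 18.4% in KO. With the coding length, chosen after seeing the data, they were 66%, 23.9%, 3.5% and 6.64% in WT and 61.7%, 27.1%, 3.25% and 7.89% in KO, in the order first given.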
